A study of Rattus norvegicus with 48 samples.

Results

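The high-numbered rat miRNAs are the mature miRNAs whose miRBase number is 3000 or more, with any suffix, from rno-miR-3064 to rno-miR-7578. They were chosen by name alone, and they made up 110 of the 763 mature miRNAs listed in each library, or 14.4%. Small RNA was sequenced in 48 libraries of 11 groups, of which 32 libraries in 7 groups came from serum and 16 libraries in 4 groups from ulna bone. The rats were male Zucker Diabetic Fatty (ZDF) fa/fa rats, which carry a homozygous leptin receptor mutation and become diabetic, or wild-type (WT) Zucker lean rats. All of them, controls included, had a surgical femur defect and a diet high in fat and carbohydrate, and treatment began at 11 weeks of age and lasted 12 weeks. WT rats received placebo (5 sera, 4 bones), 75 µg/kg parathyroid hormone (PTH; 5 sera, 4 bones) or 25 mg/kg of an antibody against sclerostin (4 sera). ZDF rats received placebo (5 sera, 4 bones), PTH (5 sera, 4 bones), anti-sclerostin (4 sera) or insulin (4 sera). Most bones were taken from animals that also gave a serum, but 2 of the 4 in the ZDF PTH group were not. No label ties a given bone to a serum, and the model for both tissues did not pair them.

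miRNAs are small RNAs cut from both arms of a hairpin, named 5p and 3p. They bind messenger RNAs mainly through the seed, bases 2 to 8 of the mature sequence, and usually lower the output of the bound message. Numbers in miRBase were given in the order of discovery, so the low numbers hold the deeply conserved miRNAs such as let-7, while many numbers from the 3000s on were entered from sequencing in rodents. No function in bone or diabetes is stated here for any of them.

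The mature sequences of 96 of the 110 high-numbered miRNAs were found in RefSeq (build GRCr8). The 9 miRNAs below carried most of the reads or passed a test between groups, and their seeds are in capitals.
miR-3473: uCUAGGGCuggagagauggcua
miR-3559-5p: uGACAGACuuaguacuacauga
miR-3559-3p: aUGUAGUAcugagucugucgug
miR-3068-3p: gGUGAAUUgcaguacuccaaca
miR-3068-5p: uUGGAGUUcaugcaaguucuaacca
miR-6216: gAUACACAgaggcaggaggagaa
miR-6328: aGGCCUGCucugagcccccgc
miR-6324: uCAGUAGGccagacagcaagcac
miR-3084a-3p: uUCUGCCAguccccuucagaca

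None of these 9 seeds occurs in another listed rat miRNA with a sequence. Among the 96, 93 had a seed of their own and 3 shared theirs with an older miRNA (miR-3065-5p, miR-3573-5p and miR-3596d), whereas 28.8% of the 590 older miRNAs with a sequence shared a seed with another. In GRCr8, miR-3473 lies at chr13:42051730-42051751 (+) within the span of Zranb3, miR-6324 at chr11:48801342-48801364 (-) within Brwd1, and miR-6328 at chr20:2890159-2890179 (+) within Ppp1r18. Both arms of miR-3559 lie within Zdhhc15, the 5p arm at chrX:73660193-73660214 (-). Both arms of miR-3068 lie within Alkbh1, the 3p arm at chr6:112811880-112811901 (-), where RefSeq gives the hairpin the symbol of a small nucleolar RNA, Snora58. miR-6216, at chr3:65165595-65165617 (-), lies in no other annotated gene. miR-3084a-3p is encoded at 2 places, within Sf3b3 and within Klhdc2 and Nemf, so its reads cannot be assigned to either. Of the 75 hairpins with a high-numbered miRNA, 58 lay inside the span of another gene, and whether they fall in an exon or intron was not analysed here.

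Parts of the mature sequence of miR-3473 recur in a small share of promoter windows. A stretch of 14 bases from it, read on either strand with T for U, was found in 138 of 33469 promoter windows of 300 bases in GRCr8 (250 before to 50 after the start site), or 0.412%. This was the highest number among the 686 listed miRNAs with a sequence. The next was miR-466b-3p, with 47 windows, and miR-6216 was number 5 with 13. The median over the high-numbered miRNAs was 0 windows, as it was over the older ones. No such stretch of miR-3068-3p, miR-3559-5p or miR-3084a-3p was found in any window. A match shows only that these letters recur in the genome, and the part of other copies in the reads counted on miR-3473 and miR-6216 was not tested.

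Many of the sequences also face an older miRNA. Of the 96, 32 were the reverse complement of an older mature miRNA over at least 16 bases with at most 1 mismatch, and 25 of the 75 hairpins overlapped another miRNA hairpin on the opposite strand. Pairs at both extremes of the read counts, each high-numbered miRNA followed by the older one, are shown with the seed of each in capitals.
miR-3590-3p: uAGCACAAugugaaaagagcuc
miR-130a-5p: gCUCUUUUcacauugugcuacu
miR-3074: gAUAUCAGcucaguaggcaccg
miR-24-1-5p: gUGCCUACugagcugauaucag
miR-3556a: cGAUUUCAgauggugcua
miR-29a-3p: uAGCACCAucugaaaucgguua
miR-3588: uCACAAGUuagggucucaggga
miR-125b-5p: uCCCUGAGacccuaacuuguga

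The high-numbered miRNAs that face an older one had few reads. A read was counted on 10 of the 32 (31.3%) and on 42 of the other 64 with a sequence (65.6%), and the median over all 48 libraries was 0 reads for the 32 and 3 for the 64. The 32 held 182 reads, or 2.56% of the reads of the 96. Of the 32 older partners, 31 had a read, with a median of 1414 reads, and the 9 partners with over 10000 reads faced high-numbered miRNAs with 2 reads in all. Thus miR-29a-3p, known for targeting collagen messages, had 299112 reads and miR-3556a had 1. miR-125b-5p had 116138 reads and miR-3588 had none. The let-7 antisense miRNAs miR-3596a, b, c and d had no read.

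miR-3590-3p was the only one of the 32 with more reads than its partner, with 93 reads in 34 libraries against 9 reads of miR-130a-5p. miR-3074 had 68 reads in 34 libraries, against 288 of miR-24-1-5p. In serum, however, the mean of miR-3074 was 17.9 RPM (reads scaled to 1000000 miRNA reads) and that of miR-24-1-5p 5.48, while in bone miR-24-1-5p was the higher, at 38.9 against 4.81. miR-3590-3p and miR-3074 were the only ones of the 32 with over 10 reads. The order of the pair miR-3074 and miR-24-1-5p therefore differed between serum and bone in these means, and this difference was not tested.

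**Figure D1:**
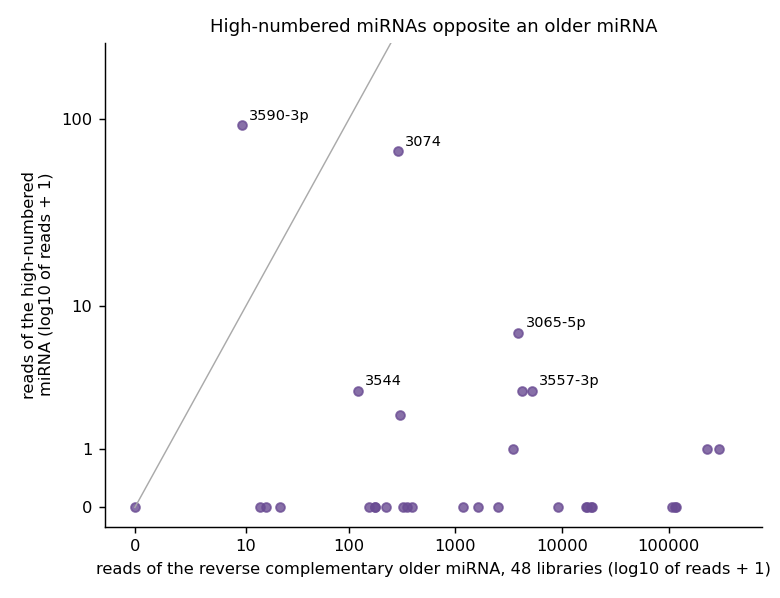
Each point is a high-numbered miRNA that is the reverse complement of an older listed miRNA (32 points). The x axis gives the reads of the older miRNA and the y axis those of the high-numbered one, both summed over 48 libraries as log10 of reads + 1, and the line marks equal reads. Only miR-3590-3p lies above the line, and 22 points lie at 0 reads on the y axis.

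The high-numbered miRNAs were a small part of the reads in every library. The depth was 28015 to 205664 miRNA reads in serum and 41627 to 1398702 in bone. The labelled tissues were checked by marker miRNAs, summed over each list in TMM CPM (counts scaled by the trimmed mean of M-values within the tissue). The 4 mesenchymal miRNAs (arms of miR-199a and miR-214) reached 12389 to 45004 in bone and 226 to 1997 in serum, and both arms of liver miR-122 reached 108 to 3218 in serum and at most 11.0 in bone. Bone also held 47869 to 456591 of 4 striated muscle miRNAs, against 117 to 45255 in serum. In serum, 4 erythrocyte miRNAs (miR-451-5p, miR-486 and the arms of miR-144) ranged from 26300 to 381326, with all 4 insulin sera at 233362 or more. The 4 cartilage miRNAs overlapped between the tissues, and 4 leukocyte miRNAs reached 9104 to 69292 in serum and 3630 to 8289 in bone.

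Of the 110 high-numbered miRNAs, 61 (55.5%) had a read in any library, against 568 of the 653 older ones (87.0%). In serum 48 were seen and in bone 53, with 40 in both, 8 in serum only, 13 in bone only and 49 in neither. For the 49, a count of 0 allows up to 3 reads in 9344496. Only miR-3068-3p, miR-3473 and miR-3559-5p had a read in all 48 libraries, while 35 had 1 to 10 reads in all libraries together and 10 were seen in a single library. The lowest numbers, from miR-3064 to miR-3120, were seen most often, 17 of 18 with a median of 12.5 reads. The other numbers of the 3000s were seen in 30 of 66 cases, and the higher numbers, up to miR-7578, in 14 of 26. miR-3084a-5p and miR-3084b-5p had the same count in each library, 13 reads in 8 libraries, so their reads cannot be told apart.

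The number seen in a library was 9 to 22 in serum and 6 to 33 in bone, where the 4 deepest bones had 29 or more. When each library was rarefied to the 28015 reads of the shallowest, 8.39 ± 1.16 high-numbered miRNAs (SD, n = 32) were expected in serum and 5.85 ± 0.756 (SD, n = 16) in bone. At that depth 241 of the older miRNAs were expected in serum and 258 in bone, so the order of the tissues was the opposite for the older miRNAs. The tissues were extracted in different ways, and tissue and extraction cannot be told apart.

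**Figure D2:**
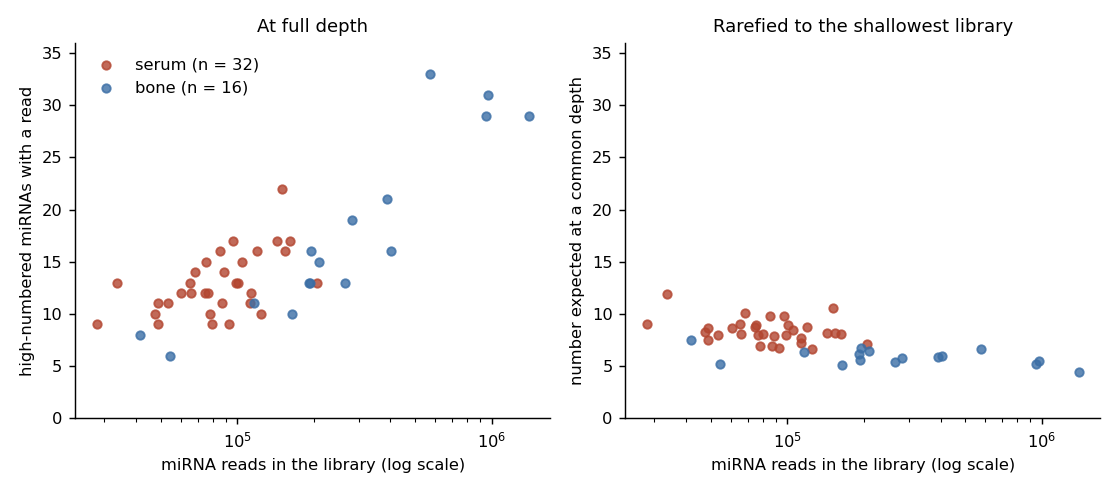
Each point is a library (red, 32 sera; blue, 16 bones), placed by its number of miRNA reads on a log scale. The y axis gives the high-numbered miRNAs with a read at full depth (left; 9 to 22 in serum, 6 to 33 in bone) and the number expected at 28015 reads (right), where most sera lie above the bones.

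The 7275 reads on high-numbered miRNAs were divided almost evenly, 3650 in serum and 3625 in bone, and were carried by few names. miR-3473 held 30.5% of them in serum, followed by miR-3559-5p with 27.5% and miR-3068-3p with 12.0%. In bone miR-3068-3p led with 37.9%, and the same 3 names together held 76.8%. Even so, miR-3473 was only number 98 of all miRNAs in serum by mean level and miR-3068-3p number 120 in bone. All high-numbered miRNAs together took 0.129% ± 0.0449 (SD, n = 32) of the miRNA reads in serum and 0.0793% ± 0.0394 (SD, n = 16) in bone. Among serum groups the share was lowest in insulin-treated ZDF rats, 0.0870% ± 0.0307 (SD, n = 4), and highest in placebo-treated WT rats, 0.166% ± 0.0504 (SD, n = 5), and the ranges of 0.0630 to 0.132% and 0.105 to 0.206% overlapped. The erythrocyte miRNAs summed to 233362 to 381326 TMM CPM in the insulin sera and 75272 to 251022 in the WT placebo sera, and their part in the share was not tested.

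miR-3473 ranged from 82.9 to 1221 RPM over the sera, with a median of 319, and from 62.9 to 495 over the bones, with a median of 207. Its group means in serum ran from 197 ± 109 (SD, n = 4) in WT rats given anti-sclerostin to 679 ± 384 (SD, n = 5) in WT rats given placebo. Within a group the spread was wide, and the 5 WT sera under PTH alone ran from 91.0 to 1221.

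miR-3559-5p was more even in serum. Its group means lay between 261 ± 132 (SD, n = 4) under insulin and 386 ± 213 (SD, n = 4) in WT rats given anti-sclerostin, and neighbouring groups in this order overlapped. In bone its 4 group means lay between 68.4 and 83.3. The other arm, miR-3559-3p, was lower in both tissues, and the 5p arm held a median of 84.6% of the reads of both arms in 30 sera and 84.6% in 13 bones with at least 10 such reads.

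miR-3068-3p was the leading high-numbered miRNA of bone, from 92.2 to 899 RPM with a median of 301, against 12.8 to 397 with a median of 138 in serum. The lowest serum group was insulin-treated ZDF rats at 76.0 ± 46.8 (SD, n = 4), where the range of 12.8 to 121 overlapped that of ZDF placebo sera, 82.1 to 153. The highest bone group was PTH-treated WT rats at 476 ± 304 (SD, n = 4). The 5p arm of miR-3068 was the minor arm, with a median of 7.69% of the reads of both arms in 21 sera and 13.0% in 16 bones with at least 10 such reads, and its share ran from 0 to 20% in these sera and from 3.33 to 38.0% in the bones.

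miR-6216 was seen mainly in serum. It had 381 reads in 31 of 32 sera and 9 reads in 4 of 16 bones. In 3 serum groups a single library stood far above the rest, at 879 RPM (75 reads) in WT rats given anti-sclerostin, 700 (61 reads) in WT rats given placebo and 417 (14 reads) in ZDF rats given anti-sclerostin. The other libraries of these groups reached at most 127, 126 and 59.8.

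**Figure D3:**
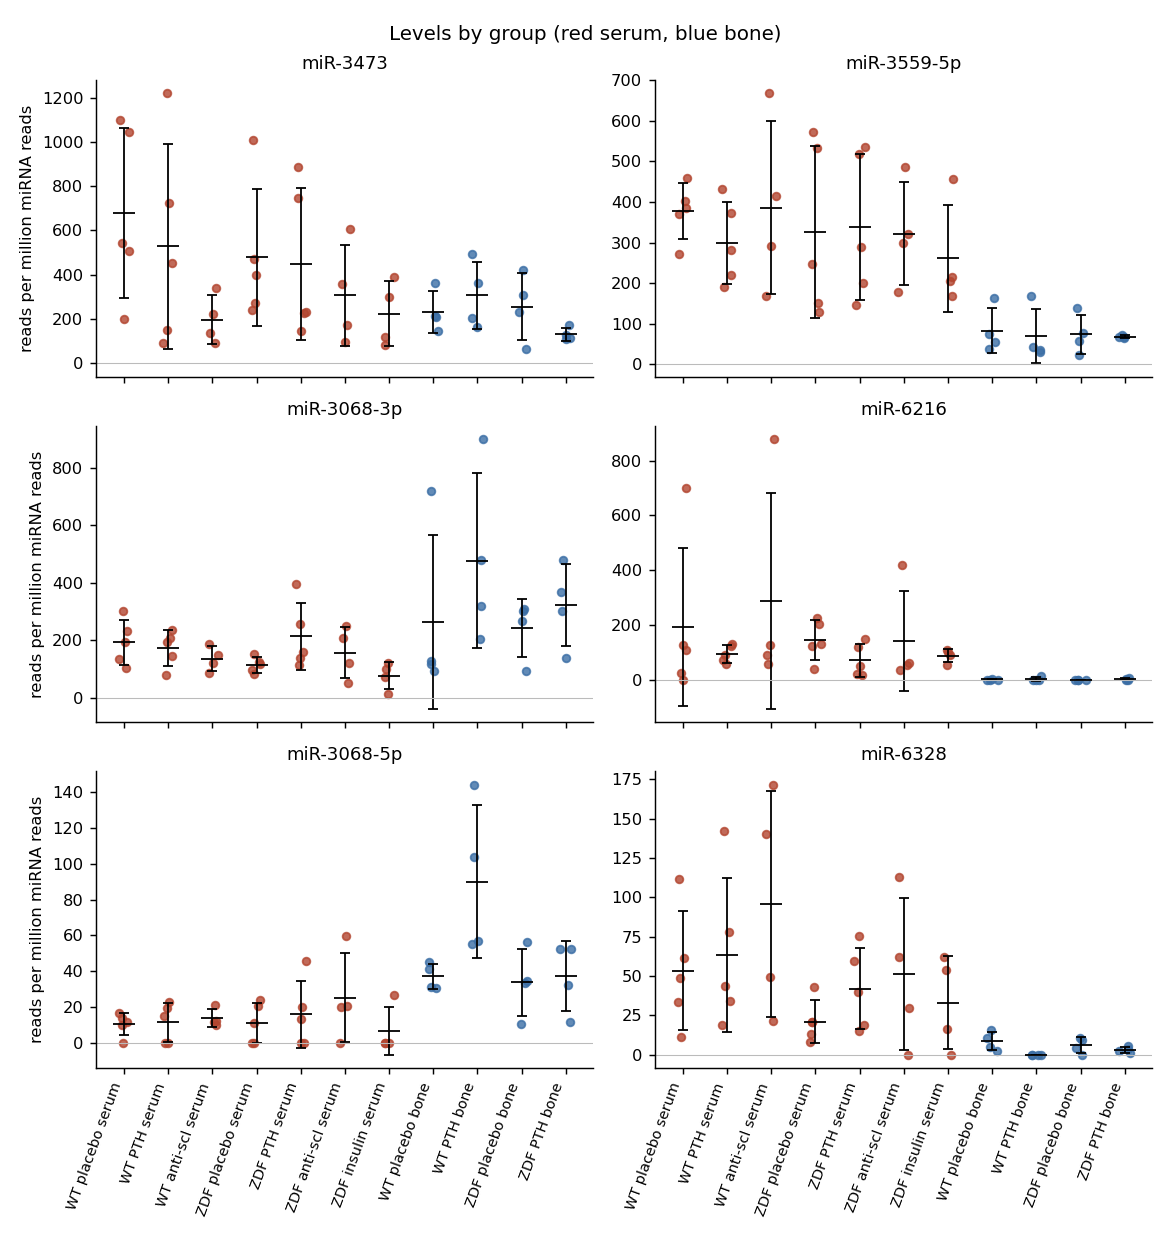
RPM of 6 high-numbered miRNAs in each library of the 11 groups (red, serum; blue, bone), with the mean and SD of the group. miR-3559-5p and miR-6328 are lower in bone than in most sera, the means of both arms of miR-3068 are higher in bone over all groups, and miR-6216 stands at 0 to 14.2 in all bones and reaches 879 in serum.

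Bone and serum were compared in the placebo and PTH rats of both genotypes (16 bones, 20 sera), with condition in the model and all miRNAs in the fit. FDR values here and below are from edgeR's quasi-likelihood test, with calls at FDR < 0.2, and levels in these comparisons are TMM CPM. Of 51 high-numbered miRNAs tested, 30 passed, 11 higher and 19 lower in bone, where 76.4% of all 590 miRNAs tested passed, 46.6% higher and 29.8% lower. The median log2 fold change was -0.64 over the 51 and 0.57 over all 590. In bulk bone, fewer cells of a type and less RNA per cell cannot be told apart, and serum levels are not levels per cell. Where low counts were filtered before the fit, 4 high-numbered miRNAs remained and all 4 passed, as did 93.3% of all miRNAs then tested. With at least 10 reads in the fit, 19 of the 30 calls were left, since 11 calls rested on fewer than 10 reads and 6 on 3 or fewer, among them miR-3085, miR-3584-3p and miR-3594-5p with 1 read each.

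Lower in bone were miR-6216, both arms of miR-3559, miR-6328, miR-3590-3p and miR-3473. miR-6216 averaged 1.69 ± 3.94 in bone and 114 ± 124 in serum (log2 fold change -5.51, SE 0.48, FDR = 1.54e-21). Its range was 0 to 14.5 in bone and 0 to 580 in serum, and the lowest serum, at 0, lay among the bones. The log2 fold change was -6.45 to -6.25 without any 1 of ZDF PTH bones 1 and 4, WT PTH bone 4, WT PTH serum 3 and WT placebo serum 3. miR-3559-5p averaged 80.3 ± 45.9 in bone and 317 ± 150 in serum (log2 fold change -2.03, SE 0.28, FDR = 1.22e-10), and the bone range of 28.6 to 171 met the serum range of 114 to 624 only at its upper end. The 3p arm differed by a like amount (log2 fold change -2.26, SE 0.36, FDR = 1.01e-08). Without any 1 of ZDF PTH bone 1, WT PTH serum 3 and WT placebo serum 3, the 5p arm was at -2.65 to -2.63 and the 3p arm at -2.93 to -2.89. The 5p arm was also at -2.63 without ZDF PTH bone 4 and the 3p arm at -3.06 without WT placebo bone 3.

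miR-6328 had 35 reads in the bones and 100 in these sera (log2 fold change -2.73, SE 0.40, FDR = 7.03e-10). It was -3.60 to -3.33 without any 1 of WT placebo bones 3 and 4, ZDF PTH bones 1 and 4, WT PTH serum 3 and WT placebo serum 3. For miR-3590-3p, with 13 and 48 reads, the log2 fold change was -2.95 (SE 0.49, FDR = 2.86e-08), and -3.67 to -3.60 without any 1 of ZDF PTH bones 1 and 4 and WT PTH serum 3. miR-3473 showed the smallest of these differences, 236 ± 92.8 in bone and 484 ± 323 in serum (log2 fold change -1.05, SE 0.27, FDR = 0.000382), and its ranges of 89.0 to 417 and 114 to 1122 overlapped over most of the bones. Without ZDF PTH bone 4 its log2 fold change was -1.56.

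Higher in bone were miR-3084a-3p, miR-3064-5p and both arms of miR-3068. miR-3084a-3p had a read in all 16 bones, 88 reads in all, and 2 reads in the 20 sera (31.9 ± 38.2 against 0.668 ± 2.99, log2 fold change 4.00, SE 0.61, FDR = 3.25e-09). In WT placebo rats alone this difference was 1.23 and did not pass (FDR = 0.376), and without WT placebo serum 5 it was 5.68. miR-3064-5p, encoded within the span of Ddx5, had 53 reads in 14 bones and 1 read in these sera (log2 fold change 3.48, SE 0.66, FDR = 1.65e-06), and without WT placebo serum 2 it was at 4.23. miR-3068-5p averaged 53.0 ± 30.6 in bone and 11.1 ± 10.5 in serum (log2 fold change 2.08, SE 0.37, FDR = 2.27e-07). It was at 1.40 to 1.49 without any 1 of WT placebo bones 3 and 4, ZDF PTH bones 1 and 4 and WT PTH serum 3.

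miR-3068-3p averaged 345 ± 216 in bone and 160 ± 72.1 in serum (log2 fold change 1.08, SE 0.27, FDR = 0.000158), and its ranges of 125 to 756 and 73.2 to 340 overlapped. The log2 fold change was 0.48 without ZDF PTH bone 1 (FDR = 0.129) and 0.49 without WT PTH serum 3 (FDR = 0.111). In WT placebo rats alone the log2 fold change was 0.27, which did not pass (FDR = 0.685). Leaving out ZDF PTH bone 1 lowered the log2 fold changes of miR-6216, miR-6328, miR-3590-3p, miR-3064-5p and both arms of miR-3559 and miR-3068. These shifts were therefore shared and not particular to any 1 miRNA, and their cause was not tested. miR-6331 and miR-3542, each 0 in all 32 sera, had 23 reads in 8 bones and 20 reads in 7 bones. For miR-3542, 8 of the 20 reads came from a single bone, and its call was absent with DESeq2 (adjusted p = 0.634).

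**Figure D4:**
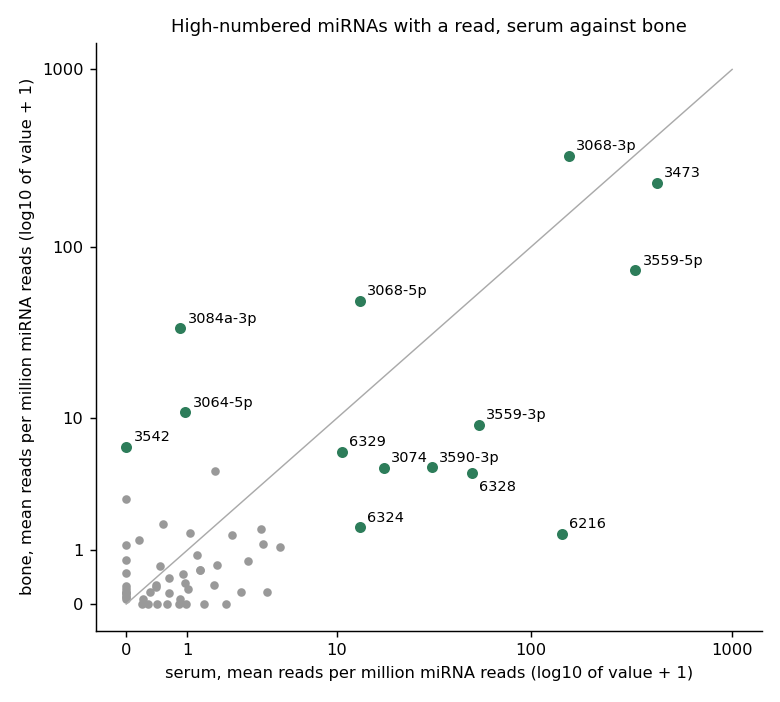
Each point is one of the 61 high-numbered miRNAs with a read, placed by its mean level over 32 sera and over 16 bones in RPM, as log10 of the value + 1. The line marks equal levels, and named miRNAs are in green. miR-6216 lies farthest below the line (143 in serum, 1.48 in bone) and miR-3084a-3p and miR-3064-5p lie above it.

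Whether the diabetic genotype changed the high-numbered miRNAs was asked in placebo serum and bone, and again under PTH and anti-sclerostin. In placebo serum 1 of 14 tested passed, where 10% of all 370 miRNAs passed. This was miR-6324, with 0 reads in each of the 5 ZDF sera and 0, 4, 1, 1 and 2 reads in the 5 WT sera. The WT level was 1.68 times a limit of 3 reads over the ZDF group (FDR = 0.112, exact permutation p = 0.0476). This ratio leaves out the counting error of the 8 WT reads. Without WT placebo replicate 2, which held 4 of the 8 reads, the WT level was 0.979 times that limit. Reads were present in 4 of 5 WT sera and the groups met at 0. DESeq2 gave it no adjusted p, it was not kept when low counts were filtered before the fit, and the call was lost in 4 of the 10 fits that left out a serum. The FDR was 0.211 without ZDF placebo replicate 1 and 0.222 without WT placebo replicate 5, and it was not tested without WT placebo replicate 2 or ZDF placebo replicate 3.

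In placebo bone none of 3 tested passed (lowest FDR = 0.926), where 12.6% of all 231 passed. DESeq2 also called none. At an unadjusted p under 0.05 in edgeR there were 4 among all 45 with a read. The share of all miRNAs under that p was not counted, here or below, so such counts cannot be set against it. The log2 differences were -0.11 (SE 0.51) for miR-3068-3p and 0.02 (SE 0.42) for miR-3473, and neither passed. In TMM CPM the groups did not overlap for 2 of the 45, miR-3084a-1-5p and miR-3585-3p, and for 5.18% of all 579 with a read. miR-3084a-1-5p had 2 to 10 reads in each WT bone and 0 to 4 in the ZDF bones, and miR-3585-3p had 1 to 4 and 0 to 1. In RPM the groups of miR-3084a-1-5p overlapped, with a ZDF bone at 8.61 and a WT bone at 7.70. In placebo serum the log2 differences were -0.75 (SE 0.52) for miR-3068-3p, -0.58 (SE 0.42) for miR-3473 and -0.30 (SE 0.44) for miR-3559-5p, none of which passed.

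In PTH bone, 1 of 5 tested passed, where 5.36% of all 261 passed. This was miR-3084a-3p, lower in ZDF rats, with 3, 6, 3 and 18 reads in the ZDF bones and 10, 3, 6 and 3 in the WT bones. Its levels were 16.8 ± 7.03 in ZDF (range 6.95 to 23.5) and 79.6 ± 83.5 in WT bones (range 9.17 to 196), n = 4 each (log2 fold change -1.86, SE 0.72, FDR = 0.192, exact permutation p = 0.2). The ranges overlapped and 1 WT bone, replicate 1, stood far above the rest, without which the difference was -0.71 (FDR = 0.763). Without WT replicate 4 it was -2.46 (FDR = 0.0565). The call was also lost without ZDF replicate 2 (FDR = 0.439) or 3 (FDR = 0.257), it was not tested without ZDF replicate 1, and it was present with DESeq2 (adjusted p = 0.194).

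miR-6329, encoded within the span of Rdx, had reads in all 4 ZDF bones under PTH (6, 4, 6 and 6) and none in the 4 WT bones. The ZDF level was 2.17 times a limit of 3 reads over the WT group. This ratio was 1.04 without WT PTH replicate 4, the deepest of the WT bones, and 3.36 without ZDF PTH replicate 4. These groups did not overlap (exact permutation p = 0.0286, the smallest that 4 against 4 allows), as was the case for 3 of 40 high-numbered miRNAs and for 5.84% of all 548 with a read. However, its mean level fell below the limit of the independent filter, so the fit gave it no FDR. The WT bones under PTH had 41627 to 282285 miRNA reads and the ZDF bones 191926 to 971036, and the part of depth was not tested.

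In serum under PTH none of the high-numbered miRNAs passed the independent filter, which left 43 miRNAs of which 2.33% passed. In serum under anti-sclerostin none of 12 passed (lowest FDR = 0.564), where 3.69% of all 325 did. DESeq2 also called none in either, and 2 and 1 high-numbered miRNAs were at an unadjusted p under 0.05.

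The treatments were each compared with the placebo group of the same genotype and tissue, so that comparisons in the same genotype share their placebo libraries. Insulin in ZDF serum was followed by no call among 10 high-numbered miRNAs tested (lowest FDR = 0.353), where 15.9% of all 309 passed. DESeq2 called none, and 1 was at an unadjusted p under 0.05. miR-3473 was at -0.72 (SE 0.41) and miR-3559-5p at -0.01 (SE 0.43) on the log2 scale. miR-3590-3p, with 15 reads in the 4 insulin sera and 9 in the 5 placebo sera, was the only one whose groups did not overlap, 1 of 10 tested (6.15% of all tested) and 1 of 30 with a read (4.36% of all with a read), and its log2 fold change of 1.28 did not pass (FDR = 0.353, exact permutation p = 0.0238). With other scaling factors 1 high-numbered miRNA was called under insulin, and the share of all miRNAs called with them is not given here. The erythrocyte miRNAs summed to 233362 to 381326 TMM CPM in the insulin sera and 87066 to 159349 in the ZDF placebo sera. These ranges did not overlap, so the part of these miRNAs and that of insulin cannot be told apart.

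Anti-sclerostin in WT serum was followed by a lower level of miR-3473, 1 of 10 tested, where 5.57% of all 305 passed. Its levels were 107, 205, 145 and 333 in the 4 treated sera (9, 19, 22 and 16 reads) and 211, 474, 1047, 902 and 582 in the 5 placebo sera (41, 44, 131, 68 and 78 reads). The highest treated serum lay above the lowest placebo serum, and the other 3 treated sera lay below all placebo sera. The means of 198 ± 99.0 and 643 ± 335 gave a log2 fold change of -1.73 (SE 0.52, FDR = 0.0367, exact permutation p = 0.0317). It also passed when low counts were filtered before the fit and with DESeq2 (FDR = 0.155 in both), and in each of the 9 fits that left out a serum. With low counts filtered before the fit, 3.7% of the 108 miRNAs tested passed.

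The sums of the erythrocyte miRNAs were 75272 to 251022 TMM CPM in the WT placebo sera and 59241 to 120210 in the treated sera. With a hemolysis measure in the model (miR-451-5p over miR-23a-3p, on a log2 scale), the difference of miR-3473 was -1.19 and did not pass (FDR = 0.853). In ZDF serum the same treatment gave -0.82 (SE 0.53, FDR = 0.596), and the difference between the genotypes in this response was 0.97 (SE 0.72, FDR = 0.957), so it was not shown to differ.

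Anti-sclerostin in ZDF serum was followed by a higher level of miR-6324, 1 of 11 tested, where 8.03% of all 299 passed. Its reads were 0, 7, 5 and 1 in the treated sera and 0 in each of the 5 placebo sera. The treated level was 5.50 times a limit of 3 reads over the placebo group (FDR = 0.0184, exact permutation p = 0.0476), with 3 of 4 treated sera above all placebo sera and 1 at 0. The 5 placebo sera at 0 are the same as in the genotype comparison above, so that the 2 results for miR-6324 are not independent. DESeq2 gave it no adjusted p, and it was not kept when low counts were filtered before the fit. With the hemolysis measure in the model it did not pass (log2 fold change 3.04, FDR = 0.720). In 1 of 9 fits that left out a serum, that without ZDF placebo replicate 5, it was not tested.

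PTH in serum was followed by no call, neither among 30 tested in ZDF rats (lowest FDR = 0.498, 1.08% of all 462 passed) nor among 7 in WT rats (lowest FDR = 0.995, 1.08% of all 278 passed). DESeq2 called none in either genotype, and 1 and 0 of the high-numbered miRNAs were at an unadjusted p under 0.05. PTH in ZDF bone was followed by no call among 40 tested (lowest FDR = 0.641), nor among all 569 miRNAs (0%). DESeq2 also called no high-numbered miRNA there, and 2 were at an unadjusted p under 0.05 in edgeR.

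In WT bone, PTH was followed by 2 calls among 13 tested, where 14.2% of all 387 passed. miR-3084a-3p was higher, at 194, 87.7, 32.1 and 9.30 in the treated bones (10, 3, 6 and 3 reads) and 27.7, 4.47, 5.19 and 4.10 in the placebo bones (6, 2, 3 and 3 reads). The lowest treated bone lay below the highest placebo bone. The means of 80.8 ± 82.5 and 10.4 ± 11.6 gave a log2 fold change of 2.86 (SE 0.76, FDR = 0.0078, DESeq2 adjusted p = 0.0492, exact permutation p = 0.0571). Without WT PTH bone replicate 1 it was 1.75 (FDR = 0.309), and without WT placebo bone replicate 1 it was 3.55 (FDR = 7.06e-05).

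miR-6328 was lower under PTH, with no read in the 4 treated bones and 1, 1, 9 and 10 reads in the 4 placebo bones. The placebo level was 1.80 times a limit of 3 reads over the treated group (FDR = 0.0824, exact permutation p = 0.0286). Without WT PTH replicate 4, the deepest treated bone, the placebo level was 0.861 times that limit. The groups did not overlap, as was the case for 2 of the 13 tested and for 4.39% of all 387, and for 3 of 48 and 3.57% of all 561 with a read. The treated bones held 541958 miRNA reads in all and the placebo bones 2111655. Neither miRNA remained when low counts were filtered before the fit, and miR-6328 got no adjusted p in DESeq2 or in the fits without placebo replicate 3 or PTH replicate 3 or 4.

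Depth and the muscle miRNAs differed in range between these groups. The treated WT bones had 41627 to 282285 miRNA reads and the placebo WT bones 195045 to 952131. The 4 striated muscle miRNAs summed to 47869 to 69008 TMM CPM in the treated and 53567 to 424538 in the placebo WT bones. The part of either in these results was not tested.

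**Figure D5:**
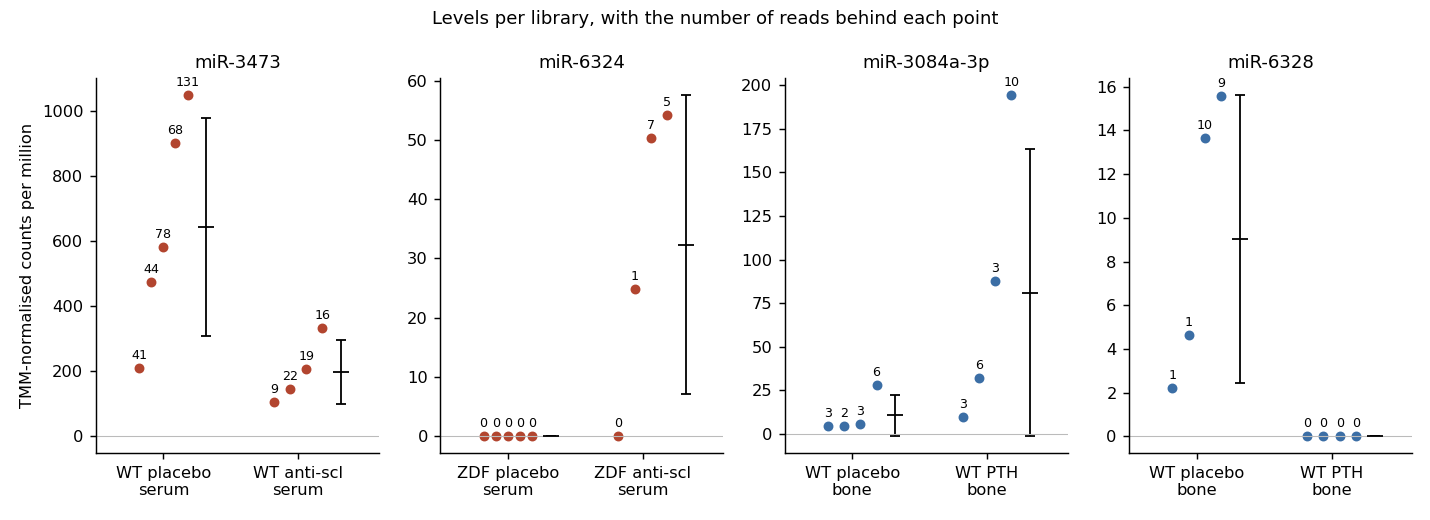
TMM CPM in each library, with the number of reads above each point and the mean and SD of the group beside it, for miR-3473 and miR-6324 under anti-sclerostin (red, serum) and miR-3084a-3p and miR-6328 under PTH (blue, bone). miR-3473 rests on 9 to 131 reads a library, and the other 3 on 0 to 10.

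The PTH response in bone was compared between the genotypes by an interaction term. Of 5 tested, 1 passed, where 3.03% of all 264 passed. The response of miR-3084a-3p was lower in ZDF than in WT rats by 3.33 on the log2 scale (log2 difference -3.33, SE 1.05, FDR = 0.113), with 22 reads in ZDF placebo bones (5, 3, 11 and 3) and 30 in ZDF PTH bones. Its calls for genotype under PTH and for PTH in WT bone used the same WT PTH bones as this test. These calls of miR-3084a-3p are therefore not independent. The difference did not pass with DESeq2 (adjusted p = 0.747), nor in 10 of the 16 fits that left out a bone, in 9 of which it was not tested. It was -4.09 without WT placebo replicate 1 (FDR = 0.0288), -2.35 without WT PTH replicate 1 and -2.26 without ZDF placebo replicate 3, the last 2 not tested. In serum no high-numbered miRNA differed between the genotypes in its response to PTH (7 tested, 2.25% of all 267 passed) or to anti-sclerostin (10 tested, 1.06% of all 283 passed), none with DESeq2, and 1 in each was at an unadjusted p under 0.05.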

How the data were processed

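Small RNA libraries from 32 sera and 16 ulna bones were analysed from the deposited tables. Per the study's methods, the authors removed adapters with cutadapt 3.3, dropped reads shorter than 17 nt, aligned the remainder by bowtie 1.3.0 and miRDeep2 2.0.1.2 to the rat genome Rnor_6.0 (2 mismatches) and then to rat miRNAs of miRBase 22.1 (1 mismatch), and deposited whole read counts per mature miRNA. RPM values of the authors, relative to all reads of a library, served only for library totals, and a further deposited column scaled to miRNA reads was not used here. Added control sequences were left out.

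High-numbered miRNAs were found by name. They, the marker lists (sums in TMM CPM) and the tests were chosen with earlier results of these data known. The counts were tested with edgeR 4.0.16 (R 4.3.3). The quasi-likelihood test, an independent filter adapted from DESeq2 and calls at Benjamini-Hochberg FDR < 0.2 follow the authors' methods. Chosen here were TMM, fits on every miRNA with at least 1 read in the libraries compared, and filtering on mean CPM over 50 quantiles up to 0.95. Tests were two-sided, and each fit held no libraries of other groups. The SE is the log2 fold change divided by the root of the F statistic. Outside the tissue comparison, each fit that called a high-numbered miRNA had infinite prior degrees of freedom. The SE and FDR there rest on a spread pooled over miRNAs and not on the scatter of that miRNA between rats. Single levels were also compared by exact permutation of log2(TMM CPM + 1). The smallest p this allows is 0.00794 for 5 against 5 or 4 against 5 and 0.0286 for 4 against 4. Alternatives were DESeq2 1.42.0, other scaling, filters before the fit, a hemolysis covariate and leaving out each library. The fit was tested on simulated data, where it recovered most changed miRNAs. It also made calls in many of the runs without any change, so a single call can arise with no change. RPM levels in the text were computed from the counts and scaled to 1000000 miRNA reads. Named are all miRNAs that passed, at most 10 per comparison, and the 10 highest in each tissue; miR-6331 and others with few reads were named after their values were seen. Replicate numbers are in accession order and pair nothing. In 82 pairs of libraries of a group, counts differed by more than counting noise (lowest chi-squared over its degrees of freedom 12.7). Intervals and floors (3 reads) cover counting error only, and a ratio to a floor leaves out the counting error of the other group. Sequences and places are from RefSeq (GRCr8), not the authors' build.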

Additional observations from a re-analysis of the deposited data

Results flagged for a closer look

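In 8 of 81 sets of libraries of a group, a single library lay far from the others by Dixon's test. The test's rate of 1 in 20 by chance holds for normal values in separate sets. These values include low counts and some sets share reads, so the 8 of 81 cannot be read against that rate. The largest shared pattern was in WT placebo bone, where replicate 1 had 0.142% of its miRNA reads on high-numbered miRNAs against 0.0392 to 0.0543% in the other 3, with miR-3068-3p at 718 RPM (scaled to miRNA reads) against 94.5 to 128 and miR-3084a-3p at 30.8 against 3.15 to 5.22. This library was the shallowest of its group, with 195045 miRNA reads. miR-6216 reached 879 in a WT anti-sclerostin serum (others 55.7 to 127), 700.2 in a WT placebo serum (others 0 to 126) and 417 in a ZDF anti-sclerostin serum (others 35.7 to 59.8). miR-3559-5p reached 168 in a WT PTH bone (others 30.6 to 42.5) and 456 in a ZDF insulin serum (others 168 to 215).

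The PTH response of miR-3084a-3p in bone differed between the genotypes by an interaction test, with a log2 difference of -3.33 (ZDF minus WT, FDR = 0.113 from edgeR). It did not pass with DESeq2 (adjusted p = 0.747), nor in 10 of the 16 fits that left out a bone. Over all 16 of these fits it ranged from -4.09 to -2.26. It was not called with DESeq2's size factors, without a filter or with a filter on low counts before the fit.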

How the results depend on the processing

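No fitted fold change of a named miRNA changed direction under the alternatives run. The counts here and in the next paragraph are of high-numbered miRNAs alone. The shares of all miRNAs called are not given beside them, so they show only how the calls moved between settings. With a filter on low counts before the fit, no high-numbered miRNA was called for genotype in placebo serum (0) or PTH bone (0), for anti-sclerostin in ZDF serum (0), for PTH in WT bone (0) or for its interaction (0), and 4 were called between the tissues. DESeq2 called 0 for genotype in placebo serum, 0 for anti-sclerostin in ZDF serum, 1 for PTH in WT bone, 0 for its interaction and 15 between the tissues. With the hemolysis covariate, 0 were called for anti-sclerostin in ZDF and in WT serum and 1 for PTH in WT serum. DESeq2's size factors or library totals gave 1 call under insulin, and size factors or no filter gave 0 for the bone interaction. The tissue count was 19 in ZDF placebo rats, 16 in WT PTH rats and 19 with at least 10 reads, a setting chosen after seeing the data. Rarefied, the mean number of high-numbered miRNAs with a read was 8.39 in place of 12.9 in serum and 5.85 in place of 17.7 in bone.

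Leaving out 1 library at a time gave 28 to 36 tissue calls, 0 to 2 for genotype in placebo serum, 0 to 2 in placebo bone, 0 to 4 in PTH bone and 0 to 1 in anti-sclerostin serum. It gave 0 to 1 under insulin, 0 to 3 and 1 to 2 for anti-sclerostin in ZDF and WT serum, and 0 to 1 and 1 to 5 for PTH in ZDF and WT bone. The interactions gave 0 to 1 each, and PTH in serum gave 0. Of 541 fold changes of named miRNAs under alternatives, 507 kept their direction and side of the threshold. The other 34 kept only the direction, 18 of them because the independent filter left the miRNA out, and for the rest the cause was not tested. DESeq2 fold changes without an adjusted p are not counted, nor are miRNAs removed by the filter before the fit, a setting that gave only 5 values. Most values came from the tissue comparison. Of the 428 values from leaving out a library, 23 lost the call, all of them outside the tissue comparison. No paired analysis of the tissues was possible, since most bones came from animals that also gave a serum but no label ties them.

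Depth left 6 to 33 high-numbered miRNAs seen per library, and 35 had 1 to 10 reads in all libraries together.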
